A study of Mus musculus with 4 samples.

Results

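Sterol and fatty acid synthesis genes encode the enzymes that build cholesterol and long-chain fatty acids from acetyl-CoA, together with the proteins that control them. They were taken as the spots that were not controls and whose gene name in the array files was 1 of 35 listed members. Of these, 34 were found, with 69 probes, among 27745 gene names and 41174 probes in all. Me1, the malic enzyme that supplies NADPH for fatty acid synthesis, was missing under that name. Its probe carries the older name Mod1 and was reached through its RefSeq accession only. The members were divided by role into 7 genes of the mevalonate arm, 9 of the post-squalene arm, 13 of the fatty acid arm with Me1, 5 regulators and the sterol carrier Stard4.

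RNA was measured in lungs of Fgf8 hypomorph mouse fetuses (Fgf8H/-, written with other letters in the sample titles, which the sources used here do not explain) and of wild type littermates (Fgf8+/+), both at E18.5 on a c57nl7/sv129 background. The Fgf8 product is a secreted growth factor of the FGF family, and the labels name no Cre or transgene that would limit the change to a tissue. The lobes were dissected without the large airways, and each RNA sample combined 3 lungs of the same genotype. A hypomorph pool in Cy5 and a wild type pool in Cy3 shared each of 4 arrays, so n = 4 pools per genotype, and the spread is between pools, not between single fetuses. No array had swapped dyes, so for any single probe dye and genotype cannot be told apart. Ratios are log2 of hypomorph over wild type, given as mean ± SD over the arrays.

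Cells build sterols by joining acetyl units into mevalonate, turning mevalonate into isoprenoid units, condensing these to squalene and then closing and trimming the ring. When membrane sterol is low, the escort protein SCAP carries the transcription factors SREBP1 and SREBP2 to the Golgi for cleavage, and the INSIG proteins hold them back when sterol is high. SREBP2 acts mainly on sterol genes and SREBP1 mainly on fatty acid genes. In the late fetal lung, fatty acid synthesis supplies the phospholipid of surfactant, which is made by alveolar type 2 cells.

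On each array, 43379 spots were not controls. Between 32731 and 34519 of them were well above background for the hypomorph and between 32491 and 33744 for the wild type. Fgf8 itself had a log2 ratio of -0.18 ± 0.11 by 1 probe, below 0 on 4 of 4 arrays, and did not pass the threshold (limma, adjusted p = 0.0538). The sources used here do not say whether that probe covers the altered part of the Fgf8 alleles. Over all 20069 genes tested, 5581 (27.8%) were called changed at an adjusted p under 0.05, 2867 (14.3%) higher and 2714 (13.5%) lower in the hypomorph.

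Of the 34 members found, 33 could be tested, each by its brightest usable probe. In the hypomorph lungs 9 were higher, 2 were lower and 22 were not called, that is 33.3% called against 27.8% of all genes. The median log2 ratio was 0.06 over the 33 members and -0.00 over all genes tested. The calls were uneven by arm, with 5 of 7 mevalonate genes higher and 2 of 12 fatty acid genes higher, a difference that was not tested. The changes were small, the 9 higher members lying between 1.13-fold and 1.24-fold. In whole lung, a smaller number of cells that express a gene and less RNA per cell cannot be told apart, here and for every gene below. The calls depended on single arrays: without the pools of array 2 the counts were 1 higher and 0 lower, without array 3 they were 1 and 1, without array 4 they were 5 and 1, and without array 1 they were 6 and 2. Over all genes 1474 were called without array 2 and 2173 without array 3, but 5775 without array 1.

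**Figure D1:**
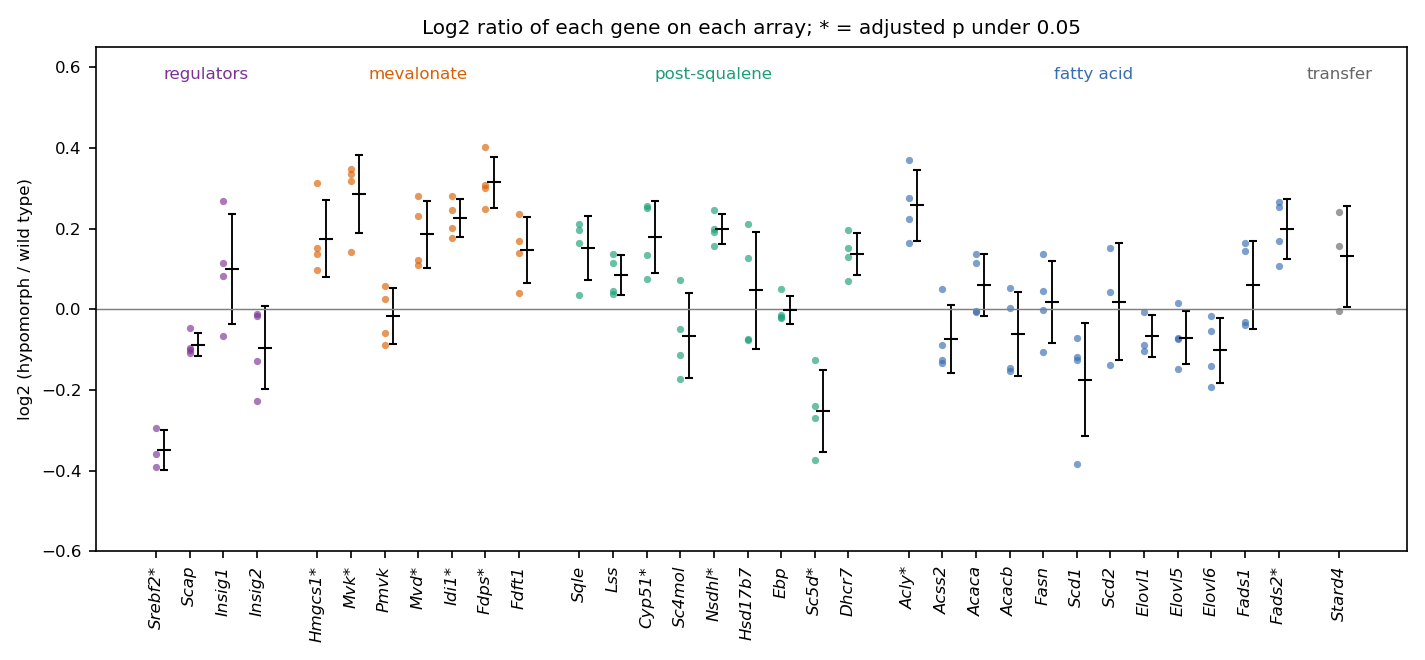
Log2 ratio of hypomorph over wild type (vertical axis) for the 33 members tested, grouped by role. Coloured points are single arrays, black bars give the mean ± SD, and a star marks an adjusted p under 0.05 (limma, over all genes). Of the mevalonate genes 6 of 7 lie above 0 on 4 of 4 arrays, whereas the fatty acid genes scatter on both sides of 0.

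The mevalonate arm leads to squalene. Of its 7 genes, 5 were higher in the hypomorph and none was lower, against 14.3% higher among all genes. Its median log2 ratio was 0.19, and its per-array medians were 0.28, 0.23, 0.24 and 0.14 on arrays 1 to 4. Without array 2 or without array 3, 1 of the 7 was called higher, and without array 1 or without array 4, 3 were. With processed signals, plain background subtraction, the deposited series table or the mean of all probes, 3 of the 7 were called higher, and with separate channels and no pairing 0 were.

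Fdps makes farnesyl diphosphate, the branch point between sterols and other isoprenoids. Its normalized log2 signal was 13.50, 13.24, 13.58 and 13.37 in the hypomorph pools of arrays 1 to 4, against 13.10, 12.93, 13.28 and 13.13 in the wild type pools. The hypomorph pool was the higher of each pair, although the 2 groups overlapped because arrays differed in level. The log2 ratio was 0.31 ± 0.06, or 1.24-fold higher (limma, adjusted p = 0.00665). This was the only member still called higher without array 2 and the only one without array 3.

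Mvk phosphorylates mevalonate. Its log2 signals were 11.09, 10.87, 11.20 and 11.08 in the hypomorph pools, against 10.74, 10.53, 10.88 and 10.94 in the wild type pools. All 4 pairs had the higher signal in the hypomorph, and the groups overlapped, the hypomorph pool of array 2 lying below the wild type pools of arrays 3 and 4. The ratio was 0.29 ± 0.10, or 1.22-fold higher (adjusted p = 0.0127).

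Idi1 interconverts the 5-carbon isoprenoid units. The hypomorph pools had log2 signals of 13.94, 13.94, 13.75 and 13.49, and the wild type pools had 13.76, 13.65, 13.51 and 13.29. Both pools of array 4 were the dimmest of their group, and the difference within arrays was steady. The ratio was 0.23 ± 0.05, or 1.17-fold higher (adjusted p = 0.0133).

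Mvd decarboxylates mevalonate diphosphate. Its ratio was 0.19 ± 0.08, or 1.14-fold higher, with arrays at 0.28, 0.23, 0.12 and 0.11 (adjusted p = 0.0350). Hmgcs1, which makes the HMG-CoA that enters the pathway, had ratios of 0.31, 0.10, 0.15 and 0.14, a mean of 0.17 ± 0.10 or 1.13-fold (adjusted p = 0.0485). These calls lay close to the threshold, and Hmgcs1 kept its call in 11 of 24 alternative ways of processing while its ratio lay above 0 in 24 of 24.

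Fdft1, the squalene synthase at the end of the arm, had ratios of 0.17, 0.14, 0.24 and 0.04 and just missed the threshold (0.15 ± 0.08, adjusted p = 0.0640). Pmvk, the second kinase after mevalonate, was the exception of the arm, with arrays at -0.09, 0.06, 0.02 and -0.06 (-0.02 ± 0.07, adjusted p = 0.798).

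**Figure D2:**
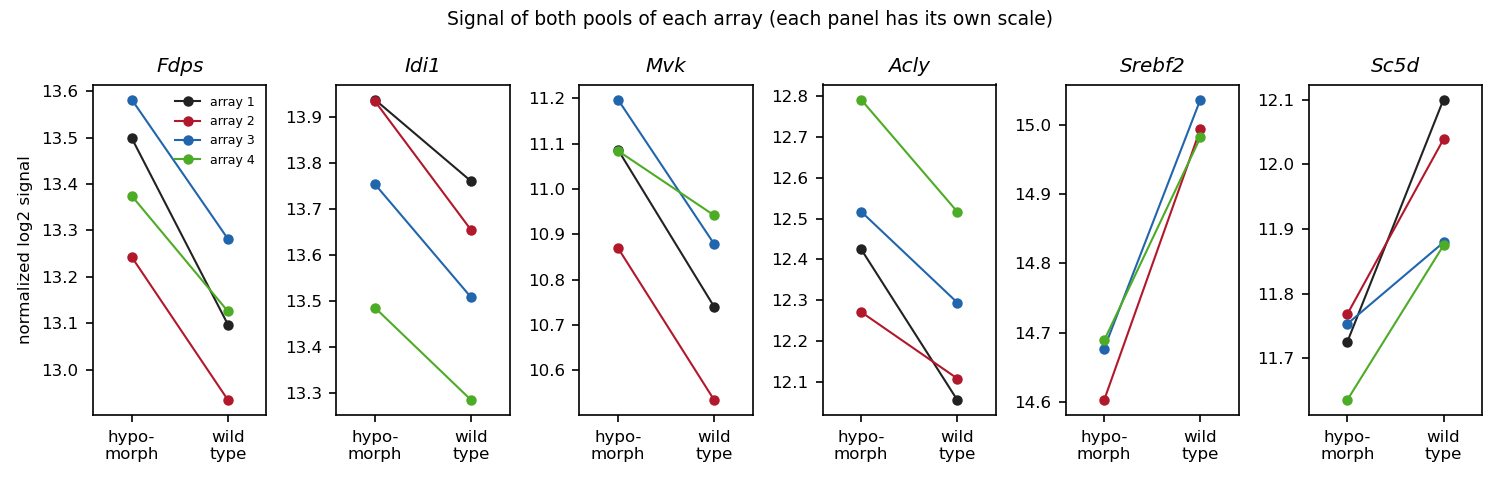
Normalized log2 signal (vertical axis, own scale per panel) of the hypomorph and the wild type pool of each array for 6 members, with lines joining the pools of 1 array. The hypomorph pool is the higher of each pair for Fdps, Idi1, Mvk and Acly and the lower for Srebf2 (arrays 2 to 4, the spot of array 1 being unusable) and Sc5d.

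Promoters of 4 of the 5 called mevalonate genes, without Fdps, are shown because these genes were each called higher and because SREBPs bind sterol regulatory elements, usually beside a CCAAT box bound by the factor NF-Y. RefSeq promoters (GRCm38.p6, 250 bases before to 50 after the transcription start) were matched for 28 members, 7 of which have more than 1. They are given 5′ to 3′ in the direction of transcription, for Hmgcs1 (chr13:119690101-119690400, plus strand), Mvk (chr5:114444019-114444318, plus strand), Mvd (chr8:122443373-122443672, minus strand) and Idi1 (chr13:8885356-8885655, plus strand). Capitals mark CCAAT on either strand (ATTGG where it lies on the other) and the core TCACNCCAC.
Hmgcs1: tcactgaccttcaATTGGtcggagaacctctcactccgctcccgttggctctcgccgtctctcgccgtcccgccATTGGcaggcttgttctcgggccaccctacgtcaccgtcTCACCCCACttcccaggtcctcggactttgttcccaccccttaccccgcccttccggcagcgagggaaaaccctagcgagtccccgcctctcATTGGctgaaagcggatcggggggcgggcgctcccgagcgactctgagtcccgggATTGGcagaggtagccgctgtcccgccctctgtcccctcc
Mvk: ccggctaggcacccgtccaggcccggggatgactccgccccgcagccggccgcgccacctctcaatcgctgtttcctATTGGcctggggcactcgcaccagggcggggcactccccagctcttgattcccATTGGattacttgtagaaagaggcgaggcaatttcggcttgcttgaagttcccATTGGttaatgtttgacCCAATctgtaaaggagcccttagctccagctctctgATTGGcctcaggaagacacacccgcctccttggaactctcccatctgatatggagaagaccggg
Mvd: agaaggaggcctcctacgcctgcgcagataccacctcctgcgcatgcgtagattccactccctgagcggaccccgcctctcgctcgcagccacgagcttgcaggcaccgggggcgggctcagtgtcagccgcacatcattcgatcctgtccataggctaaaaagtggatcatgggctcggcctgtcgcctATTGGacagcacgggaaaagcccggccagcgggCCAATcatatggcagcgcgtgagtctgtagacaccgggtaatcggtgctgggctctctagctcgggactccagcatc
Idi1: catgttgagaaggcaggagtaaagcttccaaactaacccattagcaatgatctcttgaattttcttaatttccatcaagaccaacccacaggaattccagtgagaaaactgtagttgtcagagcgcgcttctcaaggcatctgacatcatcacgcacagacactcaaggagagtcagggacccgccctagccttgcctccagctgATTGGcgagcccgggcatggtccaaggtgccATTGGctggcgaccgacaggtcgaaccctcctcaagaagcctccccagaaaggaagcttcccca

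Hmgcs1 held the core TCACNCCAC once, at position -137 from the start, as TCACCCCAC, with CCAAT boxes at both sides. Mvk held 5 CCAAT boxes and no such core. CCAAT on either strand was found in 5 of 5 mevalonate genes, 8 of 8 post-squalene genes, 7 of 10 fatty acid genes and 4 of 5 regulators with a promoter in the table. Over the members this is 24 of 28 (85.7%), against 42.0% of the 9601 tested genes with a promoter. A gene counted when any of its promoters held a match. Of all 32851 promoters taken singly, 37.4% held the box. The core TCACNCCAC was in 1 of 28 members (3.57%), against 1.47% of the tested genes, the palindrome TCACGTGA in 0 of 28, against 1.95%, and the Sp1 box GGGCGG in 22 of 28 (78.6%), against 62.8%, each searched on both strands, with a gene counted once however many matches it held and whether or not they overlapped. Uncalled members such as Pmvk held the CCAAT box too. For Pmvk it lay in the promoter at chr3:89454291-89454590 and not in that at chr3:89459321-89459620. Srebf1, Insig2, Dhcr7, Me1 and Elovl1 likewise held it in only some of their promoters. A match describes these letters in this window and is no measurement of binding.

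The post-squalene arm turns squalene into cholesterol. Of its 9 genes, 2 were higher, 1 was lower and 6 were not called, near the 14.3% higher and 13.5% lower among all genes, with a median log2 ratio of 0.08 and per-array medians of 0.13, 0.07, 0.07 and 0.07. Without array 2, 0 of the 9 were called in either direction, without array 3, 0 were higher and 1 was lower, without array 1, 1 was higher and 1 lower, and without array 4, 1 was higher and 0 were lower.

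Nsdhl removes the C4 methyl groups of lanosterol products together with other enzymes. Its log2 signals were 11.21, 10.97, 11.09 and 10.85 in the hypomorph pools, against 11.01, 10.72, 10.90 and 10.70 in the wild type pools. Each hypomorph pool exceeded its partner by a similar amount, and the groups overlapped. The ratio was 0.20 ± 0.04, or 1.15-fold higher (adjusted p = 0.0173). Cyp51, the lanosterol demethylase, had ratios of 0.26, 0.13, 0.25 and 0.07, a mean of 0.18 ± 0.09 or 1.13-fold higher (adjusted p = 0.0427). It kept its call in 13 of 24 alternatives. Their promoters, on chr5:4104648-4104947, minus strand for Cyp51 and chrX:72918271-72918570, plus strand for Nsdhl, are printed as above to set the called genes of this arm beside those before it.
Cyp51: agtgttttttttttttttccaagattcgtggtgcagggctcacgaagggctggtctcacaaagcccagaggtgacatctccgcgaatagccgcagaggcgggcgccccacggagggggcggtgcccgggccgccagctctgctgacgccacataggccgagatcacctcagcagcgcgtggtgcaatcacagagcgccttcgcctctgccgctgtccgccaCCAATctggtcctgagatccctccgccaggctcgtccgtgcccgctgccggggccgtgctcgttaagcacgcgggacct
Nsdhl: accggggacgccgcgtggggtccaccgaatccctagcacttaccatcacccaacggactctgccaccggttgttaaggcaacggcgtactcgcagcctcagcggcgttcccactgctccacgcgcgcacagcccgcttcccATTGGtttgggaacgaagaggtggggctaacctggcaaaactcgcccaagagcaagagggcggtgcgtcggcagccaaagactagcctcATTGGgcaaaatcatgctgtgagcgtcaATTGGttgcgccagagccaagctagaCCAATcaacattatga

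Cyp51 held 1 CCAAT box and Nsdhl held 4, and neither held the core TCACNCCAC.

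Sc5d encodes the lathosterol desaturase of a late step. Its log2 signals were 11.73, 11.77, 11.75 and 11.64 in the hypomorph pools, against 12.10, 12.04, 11.88 and 11.87 in the wild type pools. All hypomorph pools lay below all wild type pools, as they did for 9.53% of all genes tested. The ratio was -0.25 ± 0.10, or 1.19-fold lower (adjusted p = 0.0193), and it was the only member called lower without array 3, while it missed the threshold without array 2 (adjusted p = 0.0924) and without array 4 (adjusted p = 0.0586).

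Dhcr7, which makes cholesterol from 7-dehydrocholesterol, had ratios of 0.13, 0.07, 0.20 and 0.15 (0.14 ± 0.05, adjusted p = 0.0559). Sqle, the squalene epoxidase and a control point of the pathway, had 0.21, 0.16, 0.20 and 0.04 (0.15 ± 0.08, adjusted p = 0.0578). Both lay above 0 on 4 of 4 arrays without passing. Lss, the lanosterol cyclase, had a ratio of 0.08 ± 0.05. Hsd17b7, a C3 ketoreductase, had 0.05 ± 0.14, and the sterol isomerase gene Ebp had -0.00 ± 0.03. Sc4mol, the C4 methyl oxidase now named Msmo1, had -0.07 ± 0.11. These 4 genes did not pass (adjusted p between 0.169 and 0.985).

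The fatty acid arm lay near 0. Of 12 genes tested, 2 were higher, 0 were lower and 10 were not called, where 14.3% of all genes were higher and 13.5% lower, with a median log2 ratio of -0.02 and per-array medians of 0.05, -0.07, 0.01 and -0.04. That median turned to 0.02 when all probes of a gene were averaged and when genes were named through accessions, which adds Me1, and to 0.28 under median centring. Without array 2 and without array 3, 0 of the 12 were called, without array 4, 1 was higher, and without array 1, 2 were.

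Acly splits citrate into the acetyl-CoA that both sterols and fatty acids start from. Its log2 signals were 12.43, 12.27, 12.52 and 12.79 in the hypomorph pools, against 12.05, 12.11, 12.29 and 12.52 in the wild type pools. The hypomorph pool was the higher of each pair, with overlap between the groups. The ratio was 0.26 ± 0.09, or 1.20-fold higher (adjusted p = 0.0150). Fads2, the delta-6 desaturase of polyunsaturated fatty acids, had ratios of 0.25, 0.17, 0.27 and 0.11 (0.20 ± 0.07, 1.15-fold higher, adjusted p = 0.0263).

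The enzymes of the core reactions did not pass. Fasn, the fatty acid synthase, had ratios of 0.05, 0.14, -0.00 and -0.11 (0.02 ± 0.10, adjusted p = 0.810). Acaca, the cytosolic acetyl-CoA carboxylase, had 0.06 ± 0.08 and Acacb, its mitochondrial relative, had -0.06 ± 0.10. Acss2, which makes acetyl-CoA from acetate, had -0.07 ± 0.08. Me1, by the Mod1 probe, had 0.19, 0.13, 0.00 and -0.03 (0.07 ± 0.10, adjusted p = 0.319). By these probes the 5 genes thus lay within 0.10 of 0 on the log2 scale. A dimmer Acss2 probe had 0.12 ± 0.05, above 0 on 4 of 4 arrays, and was not called. The flagged Fasn probe, with its marked spots kept, had 0.13 ± 0.13 and was not called.

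Scd1 introduces the double bond of oleate. Its log2 signals were 14.43, 14.33, 14.77 and 14.73 in the hypomorph pools, against 14.55, 14.71, 14.84 and 14.85 in the wild type pools. The hypomorph pool was the lower of each pair, by far the most on array 2, and the groups overlapped. The ratio of -0.18 ± 0.14 did not pass (adjusted p = 0.0820), and genes as bright had a median of -0.07. Scd2, the desaturase of perinatal tissues, was measured on 3 arrays at 0.15, -0.14 and 0.04 (0.02 ± 0.15), at a brightness of 16.6, the mean log2 signal of both channels, where the 161 genes above 16 had a median ratio of 0.26. The elongase genes Elovl1 (3 arrays), Elovl5 and Elovl6 had ratios of -0.07 ± 0.05, -0.07 ± 0.07 and -0.10 ± 0.08, and the delta-5 desaturase gene Fads1 had 0.06 ± 0.11. None of these 4 passed (adjusted p between 0.151 and 0.432). A dimmer Elovl5 probe lay on the other side of 0, at 0.07 ± 0.05, and was not called.

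Among the regulators, Srebf2 was lower in the hypomorph. It encodes SREBP2, the transcription factor that acts on the sterol genes above. The log2 signals of its brightest probe were 14.60, 14.68 and 14.69 in the hypomorph pools of arrays 2 to 4, against 14.99, 15.04 and 14.98 in the wild type pools, the spot of array 1 being marked as an outlier by the scanner software. The 2 groups did not overlap. The ratio was -0.35 ± 0.05 (n = 3), or 1.27-fold lower (limma, adjusted p = 0.0109), against 13.5% of all genes called lower. Of the 1187 genes with a brightness of 14 to 15, as this probe has, 25.8% were called lower and 11.6% higher. Their median ratio was -0.07. Without array 2 or array 3 Srebf2 missed the threshold (adjusted p = 0.0784 and 0.0633), and under median centring its ratio was 0.086.

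Srebf1 encodes SREBP1, and its single probe had usable spots on 2 arrays only, so it was not tested. With the marked spots kept, its ratios were -0.20, -0.26, -0.12 and -0.09, a mean of -0.17 ± 0.08 (adjusted p = 0.0418). Scap, the escort protein gene, had log2 signals of 14.14, 14.13, 14.13 and 14.12 in the hypomorph pools, against 14.19, 14.22, 14.23 and 14.23 in the wild type pools. The groups did not overlap, but the ratio of -0.09 ± 0.03 did not pass (adjusted p = 0.135), and genes as bright had a median of -0.07. The retention factor genes Insig1 and Insig2 had ratios of 0.10 ± 0.14 (adjusted p = 0.256) and -0.10 ± 0.10 (adjusted p = 0.208). No member had all hypomorph pools above all wild type pools, as 8.19% of all genes did, and 3 had all below, as 9.53% of all genes did. Stard4, a carrier of sterols between membranes, had ratios of -0.00, 0.24 and 0.16 on arrays 2 to 4 by its brightest probe (0.13 ± 0.13, adjusted p = 0.189).

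All probes were then compared. Of the 69, 63 passed the filter. The other 6 were 4 that were well above background on too few arrays and the flagged probes of Srebf1 and Fasn. In a fit over all 29991 probes, of which 24.9% were called (12.7% higher and 12.2% lower), 14 member probes were higher and 4 were lower. Of the 19 genes with several probes, 14 had all their probes on 1 side of 0, 12 had at least 1 probe called and 0 had every probe called. No gene had probes called in opposite directions. Probes of a gene differed by a median of 0.19 between their highest and lowest mean ratio, and by 0.35 at most, in the range of the genotype differences themselves. By arm, 4 of 13 mevalonate probes were higher and 0 lower, 6 of 19 post-squalene probes were higher and 1 lower, 2 of 19 fatty acid probes were higher and 0 lower, and 3 of 9 regulator probes were lower and 0 higher.

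**Figure D3:**
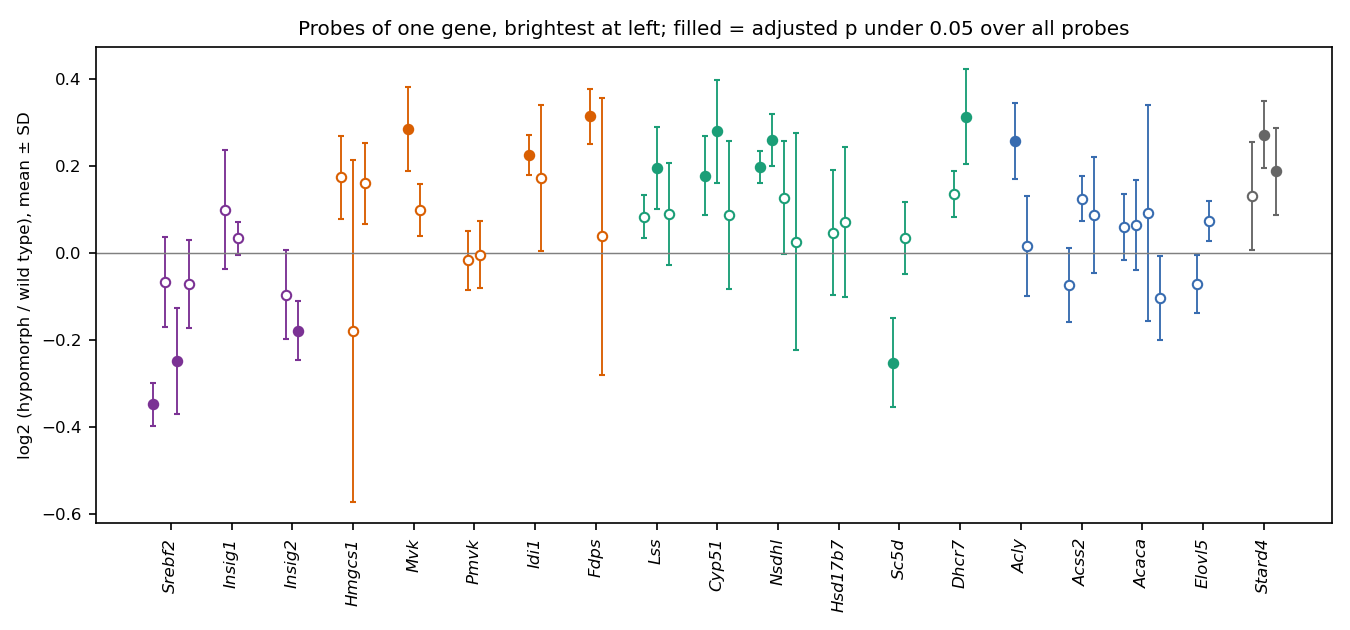
Mean log2 ratio ± SD (vertical axis) of every probe that passed the filter, for the 19 members with several probes, the brightest probe at the left of each gene. Filled points passed an adjusted p of 0.05 over all probes, and no gene has filled points on both sides of 0.

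The Srebf2 probes did not all give the same result. The brightest lies at chr15:82032520-82032579 (mm8, the build of the files), nearest the 3′ end, and the next, 0.93 kb upstream, was also lower, with ratios of -0.17, -0.27, -0.14 and -0.41 (-0.25 ± 0.12, adjusted p = 0.0274). The probes 27.8 and 31.7 kb upstream had -0.07 ± 0.10 each and were not called. Their brightness was 6.9 and 12.2, against 14.8 and 11.6 for the 2 called probes, so the one 27.8 kb upstream was dim. Exon positions in mm8 were not analysed here, so whether these probes read the same transcripts is not known. For Sc5d, the called probe lies at chr9:42005769-42005828, and a probe 2.77 kb further toward the 3′ end had 0.03 ± 0.08 (adjusted p = 0.614). The call of Sc5d thus rests on 1 of 2 probes. The array annotation lists the 2 under different transcript records, and whether they read the same transcripts is not known.

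In the post-squalene arm, dimmer probes carried calls that the brightest did not. For Dhcr7 the dimmer probe had 0.42, 0.20 and 0.32 on arrays 1 to 3 (0.31 ± 0.11, adjusted p = 0.0243). For Lss it had 0.20 ± 0.09 (adjusted p = 0.0377), beside 0.08 and 0.09 by the others. Both genes thus had probes above 0 throughout. Cyp51 was called by 2 of 3 probes (0.18 and 0.28, against 0.09) and Nsdhl by 2 of 4 (0.20 and 0.26, against 0.13 and 0.03). The last Nsdhl probe and the brightest Lss probe are each listed under a transcript record other than that of the gene's remaining probes. Stard4 was called by its dimmer probes, at 0.27 ± 0.08 (adjusted p = 0.0123) and 0.19 ± 0.10 (adjusted p = 0.0448). Insig2 was called lower by its dimmer probe, at -0.18 ± 0.07 (adjusted p = 0.0362).

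In the mevalonate arm the second probes were dimmer and mostly nearer 0. Mvk had 0.10 ± 0.06 and Idi1 0.17 ± 0.17 by theirs. Fdps had 0.04 ± 0.32 by a probe 4.21 kb upstream of the called one at chr3:89180817-89180957, with arrays at -0.41, 0.16, 0.07 and 0.33. Hmgcs1 had 0.16 ± 0.09 by one further probe and -0.18 ± 0.39 by another, whose arrays ran between -0.70 and 0.23. The spreads of Idi1, Fdps and the last Hmgcs1 probe span the value of the brightest probe, and none of these 5 probes was called. In this fit over all probes the brightest Hmgcs1 probe just missed the threshold too (limma, adjusted p = 0.0521), so no Hmgcs1 probe was called. Acly had 0.02 ± 0.12 by a dim probe 18.3 kb upstream. This Acly probe, the upstream Fdps probe and the last Hmgcs1 probe are each listed under a transcript record other than that of the brightest probe. The files place the Idi1 probes on chromosome 2 and the Hmgcs1 probes on an unplaced stretch of chromosome 13, whereas the GRCm38.p6 gene table has both genes on chromosome 13.

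Genes beside the members in the same pathways were counted likewise. Of 13 other sterol synthesis and SREBP2 target genes, 1 was higher and 2 were lower, with a median of 0.01, where 14.3% of all genes were higher and 13.5% lower. The sterol reductase gene Tm7sf2 had -0.49 ± 0.29 (adjusted p = 0.0233), the late endosomal sterol-binding gene Stard3 had -0.24 ± 0.09 (adjusted p = 0.0192) and the acetoacetyl-CoA thiolase gene Acat2 had 0.18 ± 0.09 (adjusted p = 0.0431). Npc1, the lysosomal sterol exporter, had -0.19 ± 0.13 and did not pass (adjusted p = 0.0624).

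Genes of sterol efflux and LXR targets were counted next, in a group that also held enzymes which hydroxylate or esterify sterols. Of 9 tested, 4 were lower and 0 were higher, where 13.5% of all genes were lower. The mean lay below 0 for 9 of 9, as it did for 10183 of all 20069 genes, and the median was -0.15. The group as a whole was not tested. Cyp7b1, an oxysterol hydroxylase, had ratios of -0.51, -0.46, -0.52 and -0.55, or 1.43-fold lower (adjusted p = 0.00168). Mylip, a ubiquitin ligase gene induced by LXR, was 1.39-fold lower (-0.48 ± 0.15, adjusted p = 0.00654), and the sterol exporter gene Abcg1 was 1.29-fold lower (-0.37 ± 0.09, adjusted p = 0.00635). Soat1, which esterifies cholesterol, was 1.29-fold lower (-0.36 ± 0.11, adjusted p = 0.00819). For these 4 genes all hypomorph pools lay below all wild type pools, as they did for 9.53% of all genes tested.

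Of 15 other fatty acid synthesis and elongation genes, 2 were higher and 2 lower, beside 14.3% and 13.5% of all genes, with a median of -0.03. The acyl-CoA synthetase genes Acsl1 (-0.37 ± 0.03) and Acsl4 (-0.18 ± 0.01) were lower, and the elongase gene Elovl2 (0.47 ± 0.14) and the mitochondrial citrate carrier gene Slc25a1 (0.21 ± 0.09), which feeds Acly, were higher. Of 18 genes of glycerolipid and surfactant phospholipid synthesis, 3 were higher and 6 lower, beside 14.3% and 13.5% of all genes, with a median of -0.03. The 4 with the smallest p were all lower. They were the terminal phosphotransferases of phosphatidylcholine synthesis, Cept1 (-0.49 ± 0.11) and Chpt1 (-0.33 ± 0.07), the acyltransferase gene Dgat2 (-0.37 ± 0.06) and the phosphatidate phosphatase gene Lpin1 (-0.42 ± 0.08, n = 3). Of 13 fatty acid oxidation genes, 1 was higher and 5 lower, beside 14.3% and 13.5% of all genes, with a median of 0.01. Those of smallest p named here, Acadm (-0.41 ± 0.03), Cpt1b (-0.45 ± 0.13) and Acadvl (-0.26 ± 0.02), were all lower. Each of these neighbouring groups, and both sterol groups before them, held a gene whose mean ratio was larger in size than any member's.

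**Figure D4:**
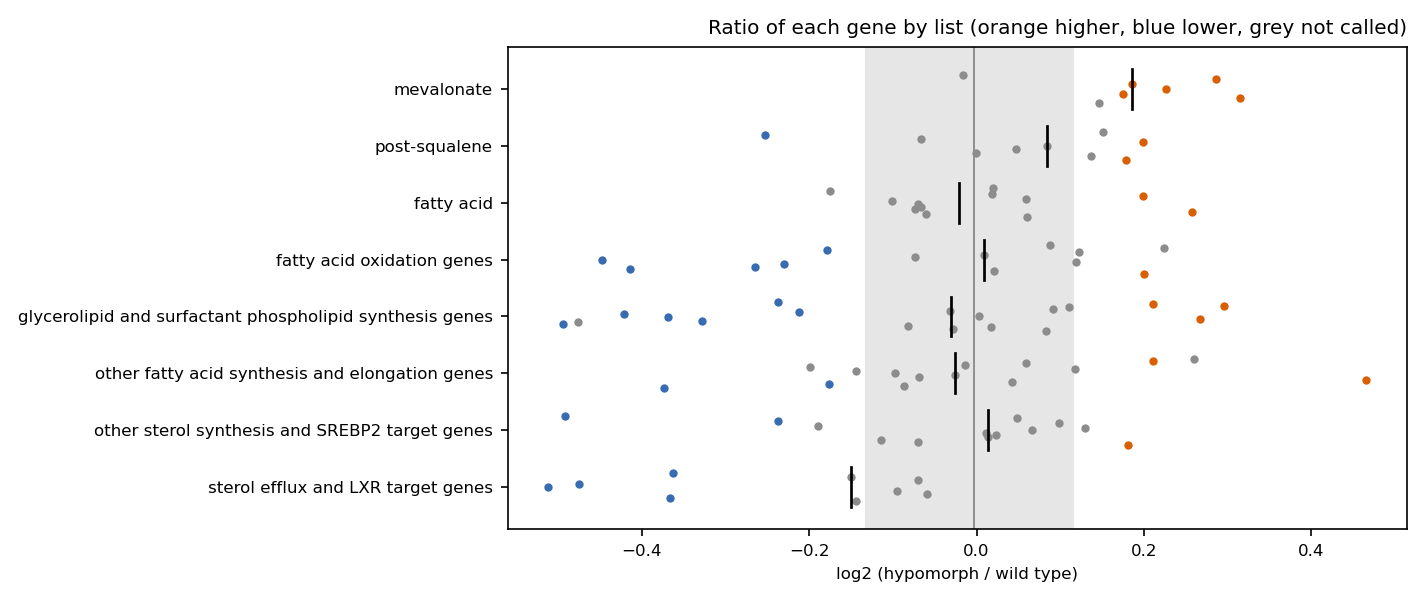
Log2 ratio of hypomorph over wild type (horizontal axis) of each gene tested in 3 member arms and 5 neighbouring groups. Points are genes (orange called higher, blue called lower, grey not called), black bars are medians, the grey line is the median of all genes and the grey band holds the middle 50% of them. The mevalonate median stands at 0.19, above the band, and the sterol efflux median at -0.15, below it.

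Markers of other cell types were set beside these results, where 14.3% of all genes were higher and 13.5% lower. All 7 dividing-cell markers tested were higher, with a median of 0.54 and a range of 0.37 to 0.71. Their summed signal was 49499 to 58558 in the hypomorph pools, against 33360 to 39108 in the wild type pools. Their per-array medians were 0.68, 0.55, 0.60 and 0.37, beside 0.28, 0.23, 0.24 and 0.14 for the mevalonate arm, array 4 being the lowest in both. The SD of the log2 ratio over all genes was 0.34, 0.25, 0.25 and 0.22 on arrays 1 to 4. Array 4 thus had the smallest spread of all genes too, so its low medians are not particular to these 2 sets. The part of dividing cells in the mevalonate result was not tested. Macrophage markers were lower in 4 of 7 and higher in 0, with a median of -0.21 and a summed signal of 14244 to 16172 in the hypomorph pools, against 16195 to 18889 in the wild type pools. Macrophages express the sterol efflux genes too, and their part in those values was not tested.

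Alveolar type 2 markers define the main lipid-making cells of the lung. Beside 14.3% higher and 13.5% lower among all genes, these markers were lower in 1 of 7 (Cd36) and higher in 0, with a median of -0.13. The other 6 were not called, and of the 7 means 3 lay above 0 and 4 below. The summed signal of the 5 markers with values on every array was 99613 to 116324 in the hypomorph pools, against 111512 to 117421 in the wild type pools. Sftpc and Sftpd were well above background on every array in both genotypes, but their spots were marked as outliers and left out. Alveolar type 1 markers were lower in 1 of 4, and lipofibroblast markers higher in 1 and lower in 2 of 5. Of 8 fat cell markers, which could come from attached adipose tissue, Cidea and Cidec could be tested, were well above background on 4 of 4 arrays in both genotypes and were not called (-0.06 ± 0.30 and -0.19 ± 0.16). Their summed signal was 605 to 836 in the hypomorph pools, against 629 to 1052 in the wild type pools. Cfd was well above background on 2 arrays for the hypomorph and 1 for the wild type, Retn on 1 array for the hypomorph by 1 of its 2 probes, and Adipoq, Lep and Ucp1 on none in either genotype. Liver cell markers were lower in 1 of 3 (Ahsg), with Fgb well above background on 2 arrays in each genotype and Ttr and Apoa1 on none. Thymus cell markers were higher in 2 of 6, and heart muscle markers were called in 0 of 7 with a median of -0.13. The heart muscle markers varied between arrays, with medians of 0.12, 0.07, -0.38 and -0.48 on arrays 1 to 4. Over the 6 with values on every array, their summed signal was 70836 to 100769 in the hypomorph pools, against 71762 to 119377 in the wild type pools.

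The arms kept the order mevalonate, post-squalene, fatty acid by median under all 24 alternatives. Under median centring, which leaves brightness trends of the dyes in place, the median of all genes was 0.13, and the arms stood at 0.35 (mevalonate), 0.22 (post-squalene) and 0.15 (fatty acid) above it. Bright genes had higher ratios under this scaling, and the members were brighter than most, with a median brightness of 12.1, against 10.4 over all genes tested. Set against the genes of their own brightness bin of 1 log2 unit, with centring over the genes tested, the arms had medians of 0.24, 0.07 and -0.03, with 7 of 7, 7 of 9 and 6 of 12 genes above their bin. Srebf2 then lay 0.26 below its bin.

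**Figure D5:**
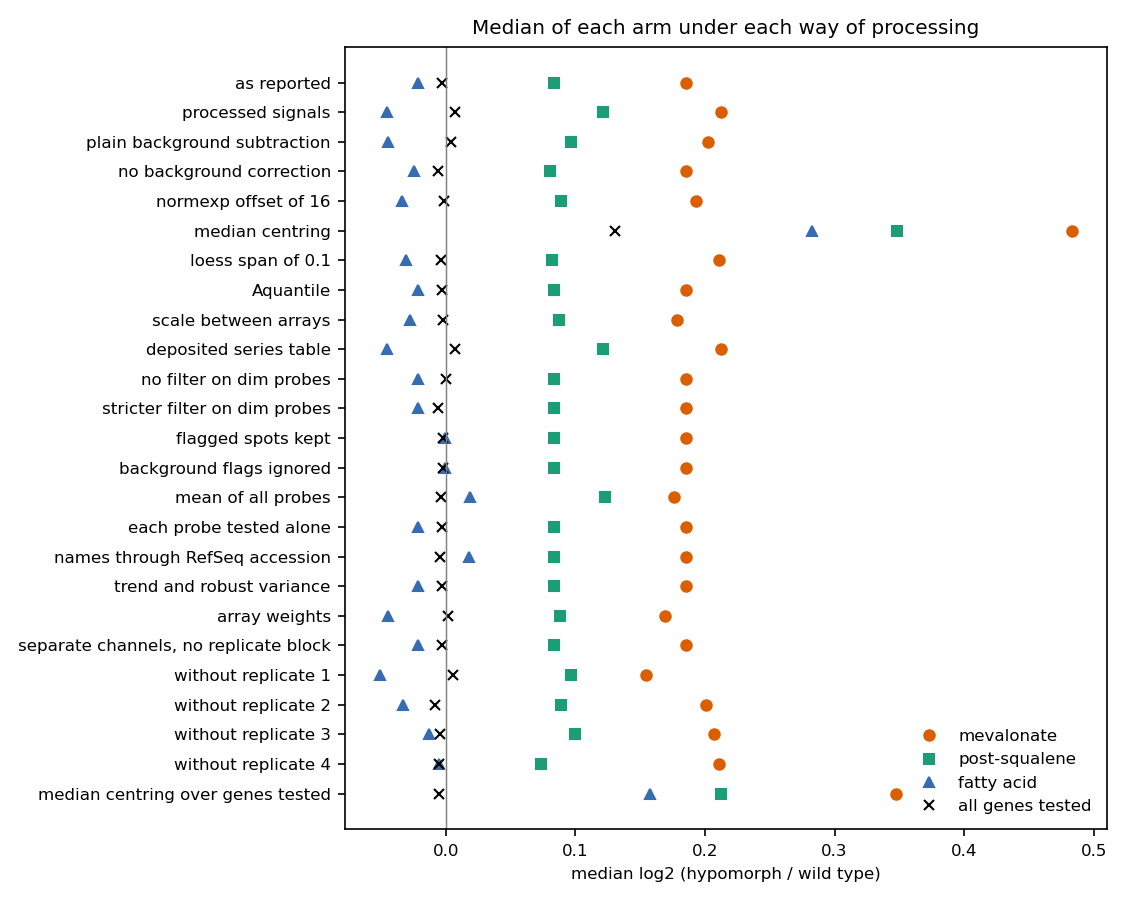
Median log2 ratio (horizontal axis) of the mevalonate, post-squalene and fatty acid arms and of all genes tested, under the reported processing and 24 alternatives (rows). The mevalonate median is the highest in every row, and all 3 arm medians shift upward under the 2 rows of median centring, to 0.48, 0.35 and 0.28 in the first of them.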

How the data were processed

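Total RNA of pooled E18.5 lungs was hybridised to 4 two-colour Agilent arrays, with hypomorph RNA in Cy5 and wild type RNA in Cy3, per the labels, 3 lungs to a pool. The submitters' processing notes name Agilent Feature Extraction 9.5.1. Per the file headers, the deposited intensities of each spot and its local background are raw, and a second set of processed intensities had background subtracted and dyes normalized. A deposited log10 ratio gives processed red over green. How the authors made the log2 values of the deposited series table is not stated, but they matched log2 of processed red over green, uncentred, with a correlation of 1 on each array and column medians of -0.03, -0.00, -0.05 and -0.03. Per the file headers 1 slide carried all 4 arrays and 1 scan read them, so neither could be a block. The number of arrays limits the precision.

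From the files, mean intensities were corrected with normexp (limma 3.58.1, R 4.3.3, offset 50) and normalized by loess (span 0.3, control spots at weight 0). Spots marked as outliers in feature or background were left out, and saturated spots, 4 to 8 per array in Cy5, were kept. Spots of a probe were averaged. A probe was kept with values on 3 or more arrays and a signal well above background in either channel on 3 or more. A gene, named as in the files, was represented by its brightest probe, and its mean ratio was tested against 0 with limma (two-sided, Benjamini-Hochberg over all genes). Signals of single pools are after loess and Aquantile. Pools of 1 array share its spots, so the ratio is the paired fit. The deviations of the 2 pools of an array correlated at 0.23, 0.89, 0.65 and 0.74 on arrays 1 to 4. For each hypomorph pool, the highest correlation with a wild type pool of another array was 0.11, 0.56, 0.38 and 0.36. The 0.23 of array 1 was thus above 0.11 but below 0.56, 0.38 and 0.36.

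The members, lists and tests were chosen with earlier results of these data known, so lists are described by counts and medians only. All members are named, and of each neighbouring group up to 4 genes with the smallest p, of which 1 is not reported here. On 10 simulated tables of 18046 genes with the measured spread, 33% of genes changed 1.25-fold and 1.2% of those changed 1.15-fold were called, and 3.83% of calls were false. Far fewer genes were changed in these tables than were called in the data. That makes the adjusted threshold stricter there, so these shares do not carry over to the data. Alternatives covered background, scaling, filters, flags, probes, names, variance and each array left out.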

Additional observations from a re-analysis of the deposited data

Results flagged for a closer look

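Each of the 29 members with values on 4 arrays was screened for an array far from the others. Chance marks about 1 in 20 such groups. Mvk stood out by array 4, whose log2 ratio was 0.14, while the nearest of the other arrays was 0.32. Without that array its ratio was still called. Ebp stood out by array 2, at 0.051, with the nearest array at -0.01, a gap that is small on the log2 scale. No cause was tested for either.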

How the results depend on the processing

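Over 24 alternatives, 1 of them (centring over the genes tested) chosen after seeing the data, the 9 higher members kept ratios above 0 in 24 of 24 and Sc5d kept a ratio below 0 in 24 of 24. A change of sign between 2 values that were both not called is not counted as a reversal.

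Median centring gave 27 members higher and 0 lower, and 10621 genes called, with arm medians of 0.48 (mevalonate), 0.35 (post-squalene) and 0.28 (fatty acid). It turned Srebf2 to 0.086, Scap to 0.32, Insig2 to 0.19, Pmvk to 0.29, Sc4mol to 0.25, Ebp to 0.38, Scd1 to 0.30, Elovl1 to 0.27 and Elovl5 to 0.38. Over all genes it called 41.1% higher and 11.8% lower, against 14.3% and 13.5% with loess. Centring over the genes tested gave 19 higher and 1 lower, 9681 genes called and arm medians of 0.35, 0.21 and 0.16, with Scap at 0.18, Pmvk at 0.15, Ebp at 0.25 and Elovl5 at 0.25. The post-squalene median was 0.12 with processed signals, with the deposited series table and with the mean of all probes, and the last left 1 member lower.

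The pairing of the pools within an array mattered: tested as separate channels with no replicate block, 0 members were higher, 1 was lower (Srebf2) and 1411 genes were called. Leaving out 1 array gave between 1 and 6 members higher, between 0 and 2 lower and between 1474 and 5775 genes called, the fewest without array 2 and the most without array 1. The arm medians then lay between 0.15 and 0.21 (mevalonate), 0.07 and 0.10 (post-squalene) and -0.05 and -0.01 (fatty acid). With no dye swap, a dye effect of single probes was not tested. What share of changes under 1.25-fold is missed with 4 arrays is not known for these data.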
